A study of Mus musculus with 6 samples.

Results

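The genes described here are 8 transcripts typical of mouse embryonic stem cells (ESCs) that lie outside the core pluripotency factors: 4 developmental pluripotency-associated genes (*Dppa2*, *Dppa3*, *Dppa4* and *Dppa5a*) together with *Utf1*, *Fbxo15*, *L1td1* and *Tcl1*. They were picked by symbol, and their identifiers are 8 of the 35565 in the count table. The choice was made with the difference between KD-1 and Control (NT) in these same libraries known, so the members' values in that contrast are a description and carry no test. All 8 passed the filter on low counts that left 15110 genes for testing, *Dppa2* only through its KD-1 libraries.

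The libraries are bulk RNA-seq of mouse gastruloids, which are aggregates of ESCs that elongate and form an anteroposterior axis, collected on day 5 after a pulse of the GSK3 inhibitor CHIR99021. There were 3 Control (NT) libraries, from cells carrying a non-targeting construct, and 3 libraries of KD-1, a clone in which the ultra-conserved long non-coding RNA *T-UCstem1* was knocked down; the sample labels name the control as wild type (WT). Both lines derive from TBV2 129/SvP ESCs, and each group rests on 1 line, so that silencing and any other difference between the lines cannot be told apart. The level of *T-UCstem1* was not analysed here, and nothing in the sources used here says whether the libraries of a group came from separate cultures.

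DPPA2 and DPPA4 are DNA-binding SAP-domain proteins that work as a heterodimer at CpG-rich promoters, many of them carrying both active and repressive histone marks, and that can switch on genes of the early cleavage embryo. DPPA3 (also STELLA) keeps UHRF1 from chromatin and thereby shapes DNA methylation, and it marks oocytes and primordial germ cells. The remaining members act in RNA binding (DPPA5A and L1TD1), chromatin regulation (UTF1), ubiquitin ligation (FBXO15) and AKT signalling (TCL1), and their transcripts are known to decline as ESCs differentiate.

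Transcripts of all 8 genes were more abundant in KD-1 than in Control (NT) gastruloids, in every library of one group against every library of the other. Their summed level was 902, 925 and 923 CPM in the Control (NT) libraries of lowest, middle and highest depth, and 1920, 1870 and 1900 CPM in the KD-1 libraries in the same order. CPM values are counts relative to the size of a library as adjusted by TMM, and values of single libraries are always given in this order. *Dppa5a* made up most of these sums, and without it they were 185, 184 and 186 CPM in Control (NT) and 656, 667 and 697 CPM in KD-1. In bulk libraries a larger share of cells holding these transcripts and more transcript per cell cannot be told apart.

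With a call set at an adjusted p under 0.05 and a change of over 1.5-fold, 7 of the 8 members were called higher in KD-1 and none lower, where 19.7% of all genes tested were called higher. The member not called was *Dppa3*. For all 8 the KD-1 libraries lay above the Control (NT) libraries, which held for 35.3% of the genes tested (70.6% of the genes tested had groups apart in either direction). The members were chosen on this contrast, and nothing is read from either count. Their median log2 fold change was 1.64 against -0.015 over all genes tested, and without *Dppa2* they spanned 0.49 to 1.84.

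**Figure D1:**
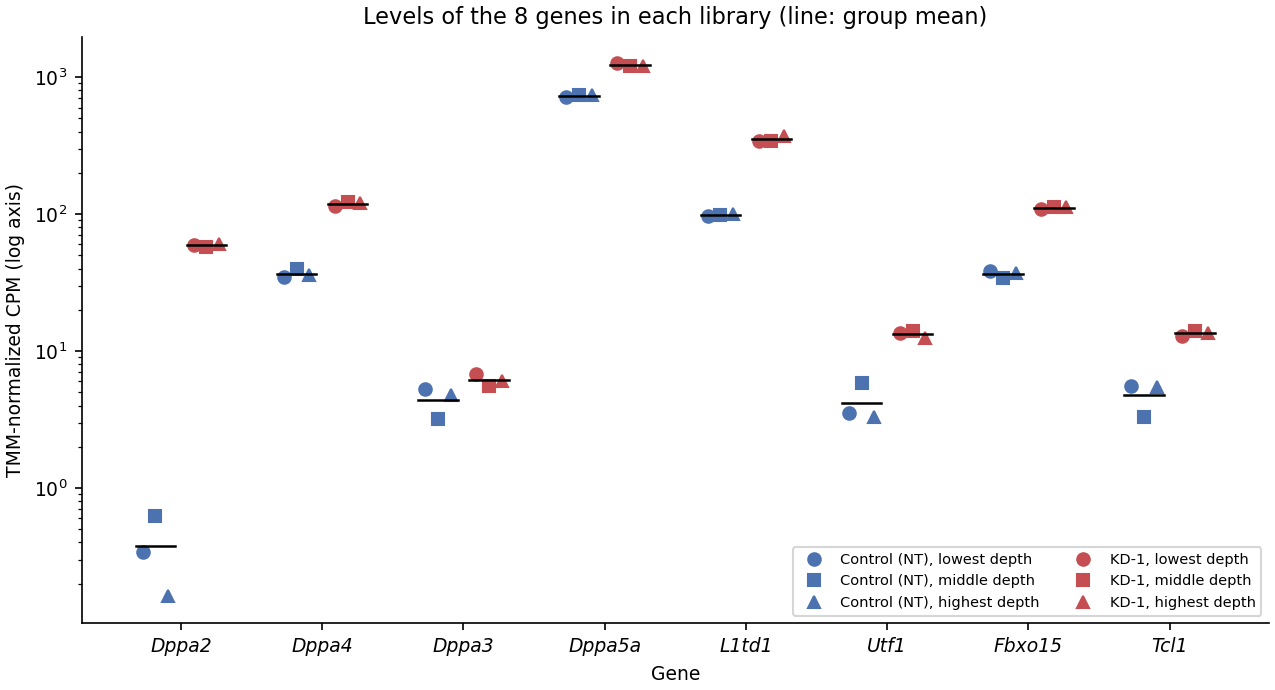
Level of each of the 8 genes in every library, in TMM-normalized CPM on a log axis, with the libraries of lowest, middle and highest depth as circles, squares and triangles (Control (NT) blue, KD-1 red) and a line at each group mean. The KD-1 symbols lie above the Control (NT) symbols for every gene, by the widest distance for *Dppa2* (0.374 against 59.0 CPM) and the narrowest for *Dppa3* (4.4 against 6.15 CPM).

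*Dppa2* (ENSMUSG00000072419, GRCm39 chr16:48124105-48140618, plus strand) went from a handful of reads to a well-covered transcript. Its counts were 7, 21 and 9 in the Control (NT) libraries and 2492, 2489 and 5241 in the KD-1 libraries. Scaled for depth, this was 0.338, 0.622 and 0.162 CPM in Control (NT), with exact Poisson 95% intervals of 0.136 to 0.696, 0.385 to 0.95 and 0.0743 to 0.308 CPM that cover counting error only. The KD-1 libraries held 59.4, 57.2 and 60.3 CPM. The group means were 0.374 ± 0.232 and 59.0 ± 1.61 CPM (SD, n = 3 each), 158-fold apart, and the fitted log2 fold change was 7.42 (standard error 0.24), the 48th largest rise among the genes tested. Control (NT) libraries varied among themselves far more than KD-1 libraries, with a coefficient of variation of 62.0% against 2.73%. The size of the fold rests on these few Control reads: leaving out the Control (NT) library of middle depth gave a log2 fold change of 8.11 and leaving out that of highest depth gave 6.84.

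*Dppa4* (ENSMUSG00000058550, chr16:48104062-48114896, plus strand), which encodes the partner of DPPA2, lies 9.21 kb from *Dppa2* on the same strand. Unlike *Dppa2* it was well expressed in Control (NT) gastruloids, at 34.5, 39.7 and 35.7 CPM, and stood at 115, 122 and 121 CPM in KD-1. The means of 36.6 ± 2.74 and 119 ± 3.82 CPM (SD, n = 3) were 3.26-fold apart. The 2 partner genes therefore differed in how unequal the groups were. Taken per transcript length within each library, the ratio of *Dppa2* to *Dppa4* was 0.00559, 0.00894 and 0.0026 in the Control (NT) libraries and 0.295, 0.268 and 0.284 in KD-1, a difference of 49.5-fold between the group means. *Dppa2* thus remained below *Dppa4* in every library, at 0.268 to 0.295 of its level in KD-1 and 0.0026 to 0.00894 of it in Control (NT).

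*Dppa2* has processed copies elsewhere in the genome, which matter because a transcript quantifier can divide reads between near-identical sequences. Of its transcript, 6 pseudogene copies of at least 90% identity are in the count table, and over all 6 libraries they held 13 counts against 10259 for *Dppa2*. The copy with most of these reads was *Gm9788* (GRCm39 chr19:41448252-41449157, 10 counts), which differs from the *Dppa2* coding sequence of 906 bases at 6 positions. The stretch below, coding bases 2 to 121 from GENCODE vM39, holds 4 of them. It is shown because it holds most of the bases that tell the coding sequence from this copy, and capitals mark the bases that differ.
Dppa2: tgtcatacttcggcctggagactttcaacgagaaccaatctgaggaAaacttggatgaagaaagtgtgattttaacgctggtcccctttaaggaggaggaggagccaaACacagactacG
Gm9788: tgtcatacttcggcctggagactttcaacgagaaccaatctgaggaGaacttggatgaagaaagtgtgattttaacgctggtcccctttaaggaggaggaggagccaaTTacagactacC
Adding the pseudogene copies to the gene lowered the log2 fold change of *Dppa2* from 7.42 to 7.18. The long non-coding RNA *Gm59635*, which shares 1168 bases at 98.89% identity with the *Dppa2* transcript, is not in the count table. *Gm60908*, on the opposite strand, shares 196 of the 3445 exon bases of *Dppa2* and is also not in it. Any reads of these 2 genes were not counted apart. Pseudogene copies of *Dppa4* held 49 counts against 24701 for the gene, those of *Dppa5a* 22 against 290455, that of *L1td1* 1 against 72161 and those of *Dppa3* 0, and no such copy was found for *Fbxo15*, *Tcl1* or *Utf1*. The protein-coding gene *Pigp* on chromosome 16, with 7417 counts, shares 424 bases at 93.4% identity with the *Dppa5a* transcript. Several long non-coding RNAs of over 90% identity to *Dppa5a* are annotated but are not in the count table.

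Genes of the 2-cell embryo, of which many are known to depend on DPPA2 and DPPA4, were close to absent in Control (NT). Of 20 such genes, 16 had no count in any Control (NT) library. The filter on low counts left 6, the *Zscan4* genes *Zscan4a* to *Zscan4f*, each of which passed it only through the KD-1 libraries, so that their being higher there was fixed by the filter, and the other 14 were not tested. Their summed counts were 4, 0 and 0 in the Control (NT) libraries and 307, 317 and 568 in KD-1, or 0.193, 0 and 0 CPM against 7.32, 7.29 and 6.54 CPM. The 4 Control reads were all assigned to *Zscan4d*. *Zscan4f* was the most abundant and was at least 90.6-fold higher in KD-1, taking 3 counts over the Control (NT) group as the limit, and on the same limit the other 4 were at least 30.4- to 39.8-fold higher. Because the *Zscan4* genes are near-identical, the division of reads among them is uncertain and their sum is the firmer value.

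The *Usp17l* genes, encoding deubiquitinases of the same early stage, had, over 5 genes, 0, 2 and 2 reads in the Control (NT) libraries and 45, 21 and 60 in the KD-1 libraries. The other 9 genes of the list, *Duxf3*, *Zfp352*, and members of the *Tcstv* and *Tdpoz* groups, summed to 0, 0 and 2 counts against 23, 23 and 44. *Duxf3*, which encodes the DUX activator of this program, held 2 counts over all Control (NT) libraries and 12 over all KD-1 libraries, a ratio of 3.83 with a counting interval of 0.852 to 35.2. The *Zscan4* sum in KD-1 remained below the level of *Dppa2* in the same libraries, on the CPM scale that does not account for length.

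**Figure D2:**
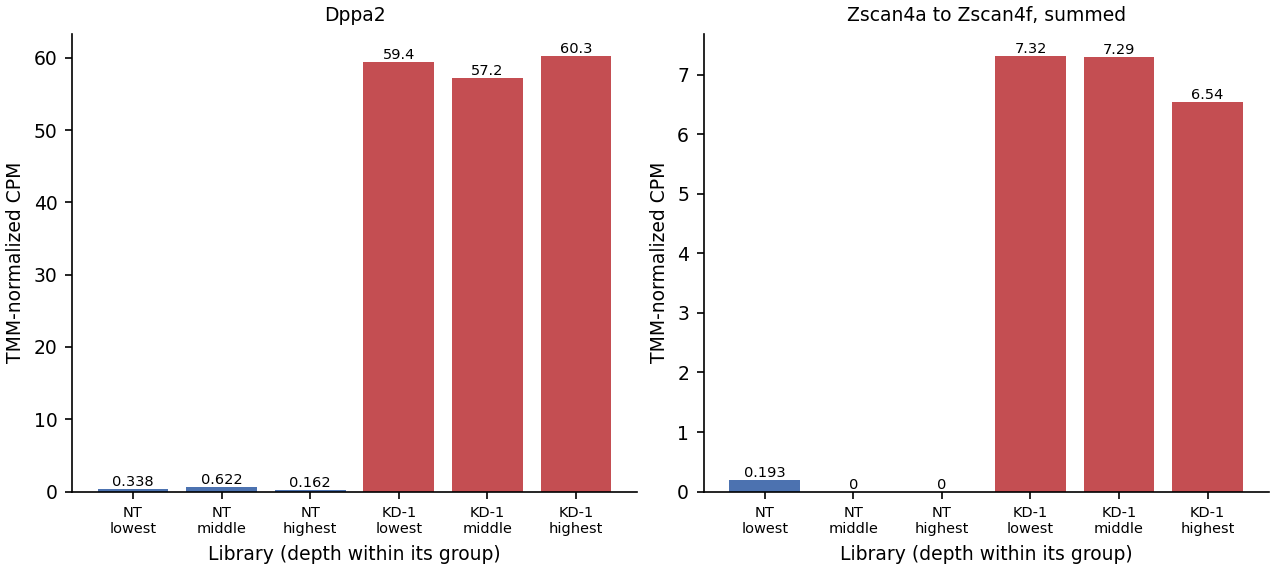
TMM-normalized CPM of *Dppa2* (left) and of the summed *Zscan4a* to *Zscan4f* (right) on linear axes from 0, with 1 bar for each library named by its group and its depth within it. *Dppa2* reached 57.2 to 60.3 CPM in KD-1 and at most 0.622 in Control (NT), and the *Zscan4* sum reached 6.54 to 7.32 CPM in KD-1 while 2 of the 3 Control (NT) libraries had no read.

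DPPA2 and DPPA4 associate with the machinery that methylates histone H3 on lysine 4, and most genes of that machinery were not called. Of 10 genes for its methyltransferases and shared subunits, 1 was called higher and 1 lower, with a median log2 fold change of 0.032. Without the Control (NT) library of lowest or of highest depth, 2 were called lower. With no fold threshold 3 were called higher and 3 lower, so that some of those not called differed by less than 1.5-fold. *Wdr5*, a core scaffold subunit, rose by 0.76 on the log2 scale (adjusted p = 4.2e-05) and *Men1*, encoding the MLL-associated menin, fell by 0.77 (adjusted p = 9.9e-05). *Kmt2b*, a methyltransferase of bivalent promoters, was at 65.2 ± 7.23 CPM in Control (NT) and 58.5 ± 1.65 CPM in KD-1 (SD, n = 3) and was not called.

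*Dppa3* (ENSMUSG00000046323, chr6:122586548-122607237, plus strand) showed the smallest difference of the 8. It had 5.26, 3.17 and 4.78 CPM in Control (NT) and 6.82, 5.54 and 6.09 CPM in KD-1. The lowest KD-1 library lay just above the highest Control (NT) library. The means, 4.4 ± 1.1 and 6.15 ± 0.643 CPM (SD, n = 3), were 1.40-fold apart and the log2 fold change was 0.49. Leaving out the Control (NT) library of lowest depth brought *Dppa3* over the threshold for a call, and leaving out that of middle depth lowered its log2 fold change to 0.30. Of its 1435 exon bases, 184 also belong to *Gdf3* on the opposite strand, and since the sources used here do not say whether strand was used in quantification, reads over these bases cannot be assigned with certainty.

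*Dppa3* and *Nanog* lie 72.5 kb apart on chromosome 6 and are co-expressed in naive ESCs. Within each library and per transcript length, the ratio of *Dppa3* to *Nanog* was 0.126, 0.083 and 0.114 in the Control (NT) libraries and 0.0511, 0.0443 and 0.0473 in KD-1. The groups did not overlap, so that *Nanog* differed by more than *Dppa3*. *Nanog* itself, a core pluripotency factor, rose by 1.67 on the log2 scale, from 109 ± 5.74 to 347 ± 11.5 CPM (SD, n = 3; adjusted p = 1.4e-07).

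Among 5 genes of the methylation machinery to which DPPA3 is linked, the maintenance pair *Uhrf1* (264 ± 14.8 and 217 ± 4.50 CPM) and *Dnmt1* (294 ± 28.1 and 250 ± 0.232 CPM, Control (NT) and KD-1, SD, n = 3) was not called. Both were lower in KD-1 by less than 1.5-fold, with log2 fold changes of -0.284 (adjusted p = 0.0028) and -0.233 (adjusted p = 0.021). *Tet1*, encoding a dioxygenase that oxidises methylcytosine, rose by 1.80 on the log2 scale (adjusted p = 2.7e-05), and *Tet3*, of the same family, fell by 0.83 (adjusted p = 1.7e-05). The list had 1 gene called in each direction and 3 not called. 

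*Dppa3* is also a germ cell gene, and other primordial germ cell markers were read beside it. Of 9 markers, 6 rose, 1 fell and 2 were not called, with a median log2 fold change of 1.45. *Dazl*, encoding an RNA-binding protein of germ cells, had 2, 0 and 0 reads in Control (NT) gastruloids and 293, 369 and 764 in those of KD-1, a ratio of 455 with a counting interval of 126 to 3760, and passed the filter only through KD-1. *Ddx4*, a germ cell RNA helicase, rose by 4.92 on the log2 scale, from 0.489 ± 0.325 to 15.4 ± 0.111 CPM. It had 13, 4 and 40 reads in the Control (NT) libraries and, like *Dazl*, passed the filter only through KD-1. *Prdm1*, a specifier of primordial germ cells, rose by 1.60 (adjusted p = 8.7e-06), whereas *Nanos3*, which germ cells need for survival, was at 3.67 ± 0.349 and 4.11 ± 0.280 CPM and was not called. *Ifitm1*, an interferon-induced surface protein gene used as an early germ cell marker, fell by 0.69 (adjusted p = 4.7e-05).

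*Dppa5a* (ENSMUSG00000060461, chr9:78274031-78278208, minus strand) was by far the most abundant of the 8. It stood at 717, 741 and 737 CPM in Control (NT) and at 1260, 1200 and 1210 CPM in KD-1. The libraries of each group lay close together and the groups were well separated, with means of 731 ± 13.0 and 1220 ± 33 CPM (SD, n = 3), 1.67-fold apart. Per transcript length it exceeded 99.4% of the genes tested in Control (NT) and 99.7% in KD-1, so that this gene was among the most abundant in Control (NT) gastruloids too.

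DPPA5A belongs to a family of KH-domain proteins whose other members are best known from the oocyte. Of 8 oocyte genes of this family and its partners 5 were tested, and 3 rose, 1 fell and 1 was not called; *Khdc3* and *Khdc1a*, among those that rose, passed the filter only through their KD-1 reads. *Ooep*, an oocyte maternal-complex gene lying 5.16 kb from *Dppa5a*, rose by 1.86 on the log2 scale, from 7.78 ± 1.21 to 28 ± 0.596 CPM (adjusted p = 1.8e-06). *Khdc3*, of the same complex, had 0, 0 and 3 reads in the Control (NT) libraries and 27, 35 and 53 in those of KD-1, a ratio of 24.5 with a counting interval of 8.16 to 120. *Khdc1a* had a ratio of 22.3 with an interval of 5.96 to 188. *Tle6*, a further subunit of the complex, fell by 1.62 (adjusted p = 8.4e-05).

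*L1td1* (ENSMUSG00000087166, chr4:98614971-98626717, plus strand) encodes an RNA-binding protein derived from a LINE-1 open reading frame. It had 97.5, 97.7 and 99.7 CPM in Control (NT) and 340, 343 and 370 CPM in KD-1. The Control (NT) libraries differed by a coefficient of variation of 1.25%, the smallest of the 8 genes, and the means of 98.3 ± 1.23 and 351 ± 16.7 CPM (SD, n = 3) were 3.57-fold apart. After *Dppa2* this was the largest difference among the members.

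*Utf1* (ENSMUSG00000047751, chr7:139523649-139525025, plus strand), a chromatin-bound factor of ESCs, was a low transcript with 3.52, 5.80 and 3.27 CPM in Control (NT) and 13.5, 13.9 and 12.5 CPM in KD-1. The Control (NT) library of middle depth was above the other two but well below every KD-1 library. The means were 4.20 ± 1.40 and 13.3 ± 0.706 CPM (SD, n = 3), 3.17-fold apart, with a log2 fold change of 1.67 that became 1.98 without that library. Of 3 genes linked to UTF1 in ESCs, *Myc* fell by 2.35 on the log2 scale, from 32.4 ± 8.07 to 6.37 ± 0.389 CPM (adjusted p = 5.9e-06), while *Cdkn2a* (14.5 ± 2.29 and 15.4 ± 1.45 CPM) and *Dcp1a* (39.9 ± 4.96 and 51.3 ± 0.945 CPM) were not called.

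*Fbxo15* (ENSMUSG00000034391, chr18:84952907-85002843, plus strand) encodes an F-box protein, the substrate-binding part of an SCF ubiquitin ligase, and is a classical reporter locus of pluripotent cells. It had 38.4, 34.2 and 37.0 CPM in Control (NT) and 109, 112 and 113 CPM in KD-1. Both groups were tight, with means of 36.5 ± 2.16 and 111 ± 1.82 CPM (SD, n = 3), 3.04-fold apart. Of 5 genes for subunits and regulators of the ligase none was called higher and 4 were not called. *Nedd8*, encoding the modifier that activates cullins, fell by 0.63 on the log2 scale (adjusted p = 8.7e-05), a call that was lost without the KD-1 library of highest depth. With no fold threshold 1 of the 5 was called higher and 3 lower.

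*Tcl1* (ENSMUSG00000041359, chr12:105183009-105189235, minus strand), whose product binds AKT and enhances its activity, had 5.55, 3.32 and 5.45 CPM in Control (NT) and 12.9, 13.9 and 13.6 CPM in KD-1. The Control (NT) library of middle depth was the lowest and the groups were well apart. The means of 4.77 ± 1.26 and 13.5 ± 0.499 CPM (SD, n = 3) differed 2.82-fold. Of 6 related genes only *Tcl1b2* and *Mtcp1* had enough reads to be tested. *Tcl1b2*, of the same cluster, had 0, 2 and 6 reads in the Control (NT) libraries and 14, 12 and 40 in those of KD-1, and passed the filter only through the latter. *Mtcp1* was not called.

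The AKT pathway did not move one way with *Tcl1*. Of its 15 genes 4 rose, 2 fell and 9 were not called, with a median log2 fold change of -0.042. Without the Control (NT) library of lowest depth 5 were called lower. *Akt1*, the ubiquitous kinase, fell by 0.99 (adjusted p = 2.3e-05), and *Foxo1*, a transcription factor that the kinase restrains, rose by 0.72 (adjusted p = 1.8e-05). *Pik3cb*, a catalytic subunit of PI3-kinase, rose by 1.34 (adjusted p = 1.9e-06) and *Pik3r1*, a regulatory subunit, fell by 0.91 (adjusted p = 1.5e-05).

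Promoters of *L1td1*, *Utf1* and *Tcl1* were read from the RefSeq table of GRCm38.p6, in which 3 of the 8 members have an entry. The 250 bases before each start site are shown because these genes were higher together in the same libraries and because CpG-rich promoters are what DPPA2 and DPPA4 are known to bind. Capitals mark matches to the GC box (GGGCGG) and the CACCC box (CCACCC) on either strand, and coordinates are of that build.
L1td1 (chr4:98726504-98726753, plus strand): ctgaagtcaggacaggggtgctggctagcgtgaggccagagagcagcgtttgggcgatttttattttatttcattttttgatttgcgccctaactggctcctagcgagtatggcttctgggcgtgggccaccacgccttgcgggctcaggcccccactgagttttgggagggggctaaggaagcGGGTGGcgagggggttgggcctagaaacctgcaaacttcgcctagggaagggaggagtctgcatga
Utf1 (chr7:139943606-139943855, plus strand): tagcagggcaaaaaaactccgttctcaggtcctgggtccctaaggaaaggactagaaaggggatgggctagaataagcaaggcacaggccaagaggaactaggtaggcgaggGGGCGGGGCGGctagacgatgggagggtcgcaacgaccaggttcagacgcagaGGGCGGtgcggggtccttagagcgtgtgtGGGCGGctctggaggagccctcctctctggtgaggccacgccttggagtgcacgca
Tcl1 (chr12:105222738-105222987, minus strand): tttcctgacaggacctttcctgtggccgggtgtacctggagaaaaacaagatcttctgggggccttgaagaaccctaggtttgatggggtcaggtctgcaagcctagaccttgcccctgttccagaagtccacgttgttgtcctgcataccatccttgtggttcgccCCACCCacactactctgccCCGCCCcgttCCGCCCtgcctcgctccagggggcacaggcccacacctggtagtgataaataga
The *Utf1* window was the richest of the 3, with 14 CpG dinucleotides, a GC content of 61.6% and 4 GC boxes. *L1td1* had 11 CpG dinucleotides and 1 CACCC box, and *Tcl1* had 7 with 2 GC boxes and 1 CACCC box. The median over all 27018 promoters of the table was 6, and 64%, 70.4% and 53.5% of promoters had fewer CpG dinucleotides than *L1td1*, *Utf1* and *Tcl1*. A GC box was present in 32.9% of all promoters and a CACCC box in 27.7%. Searched in the same way on both strands, the octamer ATGCAAAT (1.61% of all promoters), the E-box CACGTG (6.05%), the TATA box TATAAA (13%), the SOX core ACAATG (11%) and the ESRRB site TCAAGGTCA (0.366%) had no match in the 3 windows.

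Compared per transcript length (counts divided by the length of the canonical transcript and scaled to a common total), the order of levels in Control (NT) was led by *Dppa5a* at 1760 ± 35.1, followed by *L1td1* (58.4 ± 1.99), *Fbxo15* (41.1 ± 3.55) and *Dppa4* (35.6 ± 1.63). *Dppa3* (9.22 ± 2.51), *Tcl1* (5.94 ± 1.71) and *Utf1* (5.70 ± 1.72) came next, and *Dppa2* was last at 0.206 ± 0.122. In KD-1 the order was *Dppa5a* (3400 ± 61.4), *L1td1* (242 ± 11.5), *Fbxo15* (145 ± 3.86), *Dppa4* (135 ± 5.92), *Dppa2* (38.0 ± 0.644), *Utf1* (21.1 ± 1.30), *Tcl1* (19.3 ± 0.969) and *Dppa3* (14.8 ± 1.35; all SD, n = 3). The ranges of mean ± SD overlapped between *Dppa3* and *Tcl1* and between *Tcl1* and *Utf1* in Control (NT), and between *Utf1* and *Tcl1* in KD-1, and did not overlap between other neighbours in either order. *Dppa2* stood above *Utf1*, *Tcl1* and *Dppa3* in KD-1 and below them in Control (NT). The place of some genes depended on the length used: over all annotated exon bases, *Fbxo15* (16.4 in Control (NT), 55.4 in KD-1) lay below *Dppa4* (28.3 and 103) and, in KD-1, below *Dppa2* (56.5), and *Utf1* (9.68) lay above *Dppa3* (9.13) in Control (NT).

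*Pou5f1*, the core factor OCT4, rose by 1.29 on the log2 scale, from 269 ± 52.1 to 661 ± 29.9 CPM (SD, n = 3; adjusted p = 3.1e-05), and the members were set against it within each library to ask which of them differed by more or less than this factor. The ratio to *Pou5f1* per transcript length was higher in every KD-1 library than in any Control (NT) library for *Dppa2*, *Dppa4*, *L1td1* and *Utf1*. For *L1td1* it was 0.215, 0.150 and 0.200 in the Control (NT) libraries and 0.274, 0.259 and 0.273 in KD-1. For *Dppa5a* it was lower without overlap, at 6.4, 4.61 and 5.99 against 4.10, 3.66 and 3.59. For *Tcl1* (0.0256, 0.0107 and 0.0229 against 0.0217, 0.0218 and 0.0210), *Fbxo15* and *Dppa3* the groups overlapped. The Control (NT) library of middle depth had the lowest ratio in that group for 6 of the 8 genes, *Dppa2* and *Utf1* being the others.

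**Figure D3:**
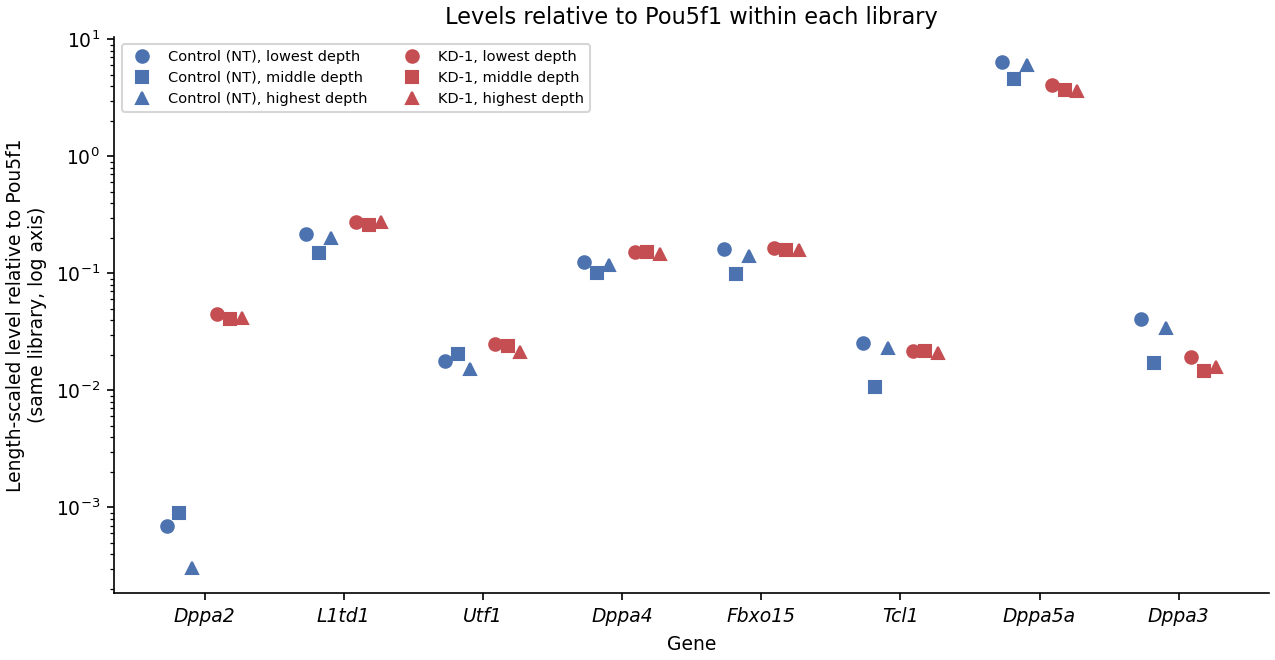
Ratio of each of the 8 genes to *Pou5f1* within the same library, per transcript length, on a log axis, with circles, squares and triangles for the libraries of lowest, middle and highest depth (Control (NT) blue, KD-1 red). The ratio of *Dppa2* was 66.8-fold higher in the KD-1 mean, those of *L1td1*, *Utf1* and *Dppa4* were 1.42-, 1.32- and 1.31-fold higher, and that of *Dppa5a* was 0.668 times the Control (NT) mean.

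Of 20 other ESC-associated transcripts 18 were tested, of which 13 rose, 2 fell and 3 were not called, with a median log2 fold change of 1.16. *Tdh*, a threonine dehydrogenase of mouse ESC metabolism, rose by 2.26 on the log2 scale, from 57.9 ± 6.14 to 278 ± 2.07 CPM (adjusted p = 1.2e-07). *Tex19.1*, which restrains transposons in germ and pluripotent cells, rose by 2.42 (adjusted p = 1.8e-07) and *Hsf2bp*, a partner of BRCA2, by 2.15 (adjusted p = 6.9e-07). The gene with the largest fall was *Dnmt3l*, a cofactor of de novo methylation, at -1.39 (9.59 ± 0.885 to 3.64 ± 0.145 CPM, adjusted p = 1.8e-05). The other gene that fell was *Upp1*, a uridine phosphorylase gene (46.5 ± 0.780 to 30.8 ± 0.335 CPM, adjusted p = 3.9e-05), whose fold lay close to the threshold and whose call was lost under most alternatives, DESeq2, RLE scaling and the omission of any KD-1 library included.

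Of 12 core and naive pluripotency factors 11 rose and none fell, with a median log2 fold change of 1.62. *Sox2* rose most, by 2.22 (adjusted p = 8.2e-07), and the part of other cell types in its value was not tested. *Esrrb*, a nuclear receptor of naive cells, rose by 1.87 (adjusted p = 4.7e-08), while *Tbx3* was at 12.5 ± 0.833 and 13.8 ± 0.635 CPM and was not called. Of 10 formative and primed genes 6 rose, 1 fell and 3 were not called, with a median of 1.11. *Grhl2* (3.74, adjusted p = 4.6e-08), *Otx2* (3.30, adjusted p = 7.8e-08) and *Pou3f1* (2.98), transcription factors of the epiblast as it leaves the naive state, rose by more than any member but *Dppa2*. *Pou3f1* had 5, 13 and 26 reads in the Control (NT) libraries, a mean of 0.365 CPM, and passed the filter only with its KD-1 libraries. *Dnmt3a* fell by 0.74 (adjusted p = 4.3e-06).

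**Figure D4:**
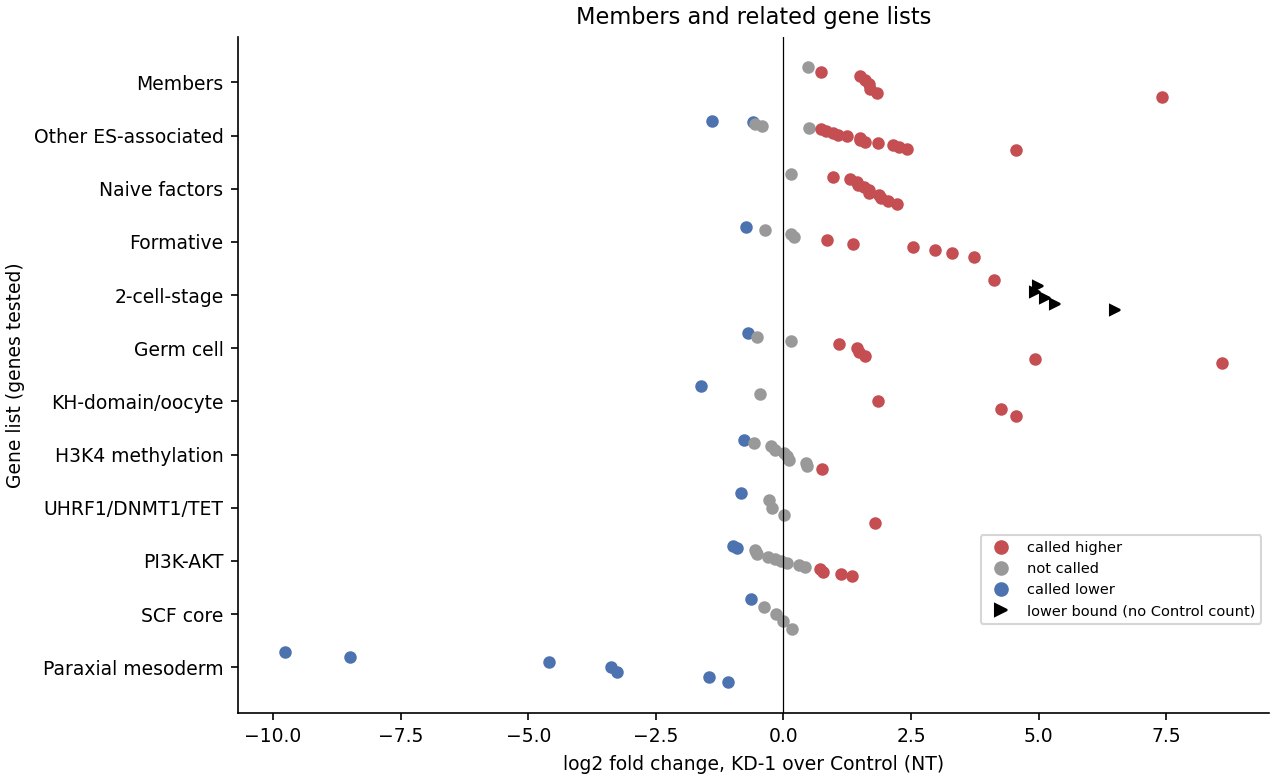
Log2 fold change of KD-1 over Control (NT) for each tested gene of the members and of the main gene lists, 1 row for each list, in red where called higher, blue where called lower and grey where not called, with black triangles at the lower bound of genes that had no Control (NT) count. The core and naive pluripotency (median 1.62), germ cell (1.45), ESC-associated (1.16) and formative (1.11) genes lie mostly to the right of 0. The histone methyltransferase (0.032), AKT (-0.042) and SCF (-0.15) genes lie on both sides of it. *Dazl*, *Khdc3*, *Khdc1a* and *Zscan4d* are fitted values on few Control reads.

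The genes next to the members on the chromosome were examined because position played no part in the choice. Within the 3 nearest protein-coding genes on each side there were 42 genes that are not members, of which 26 were tested, 10 rose and 1 fell. Over all genes tested, 19.7% were called higher and 18.1% lower. Of the neighbours that rose, *Nanog*, *Gdf3*, *Ooep* and *Morc1* also belong to the naive or ESC-associated lists above, so the count is not independent of those lists. Beside *Dppa2* and *Dppa4*, *Morc1*, a germ-line transposon silencer 111 kb from *Dppa2*, rose by 1.495 (adjusted p = 2.9e-06). *Nectin3*, on the other side and 1810 kb from *Dppa2*, was higher in KD-1 by less than 1.5-fold and was not called. It was at 52.6 ± 1.32 and 76.7 ± 2.50 CPM, with a log2 fold change of 0.544 (adjusted p = 5.4e-05). Around *Dppa3* the rise included *Gdf3* (1.61, adjusted p = 1.8e-06), a TGF-beta family ligand that overlaps it, *Apobec1* (0.82, adjusted p = 0.0027), a cytidine deaminase gene 6.48 kb away, *Nanog* and the glucose transporter gene *Slc2a3* (97.5 kb, 1.09, adjusted p = 3.7e-06).

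*Ddx43*, an RNA helicase gene 24.8 kb from *Dppa5a*, rose by 1.41 (adjusted p = 9.3e-05) as did *Ooep*. *Kndc1*, 2.19 kb from *Utf1*, rose by 2.55, from 0.708 ± 0.568 to 3.98 ± 0.124 CPM (adjusted p = 0.0022). *Dipk1c*, 192 kb from *Fbxo15*, rose by 1.75 (adjusted p = 0.0047) and *D430019H16Rik*, 231 kb from *Tcl1*, by 1.04 (adjusted p = 0.00021). The nearest neighbours of *L1td1* and *Fbxo15* were not called, namely *Patj* (11.4 ± 1.60 and 11.7 ± 0.749 CPM), 7.13 kb from *L1td1*, and *Timm21* (50.2 ± 1.98 and 44.9 ± 0.720 CPM), which overlaps *Fbxo15* without shared exon bases. *Nfia*, a nuclear factor gene 608 kb from *L1td1*, fell by 1.08 (adjusted p = 0.00012). As whole chromosomes, those carrying the members had medians between -0.157 (chromosome 7) and 0.074 (chromosome 12).

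**Figure D5:**
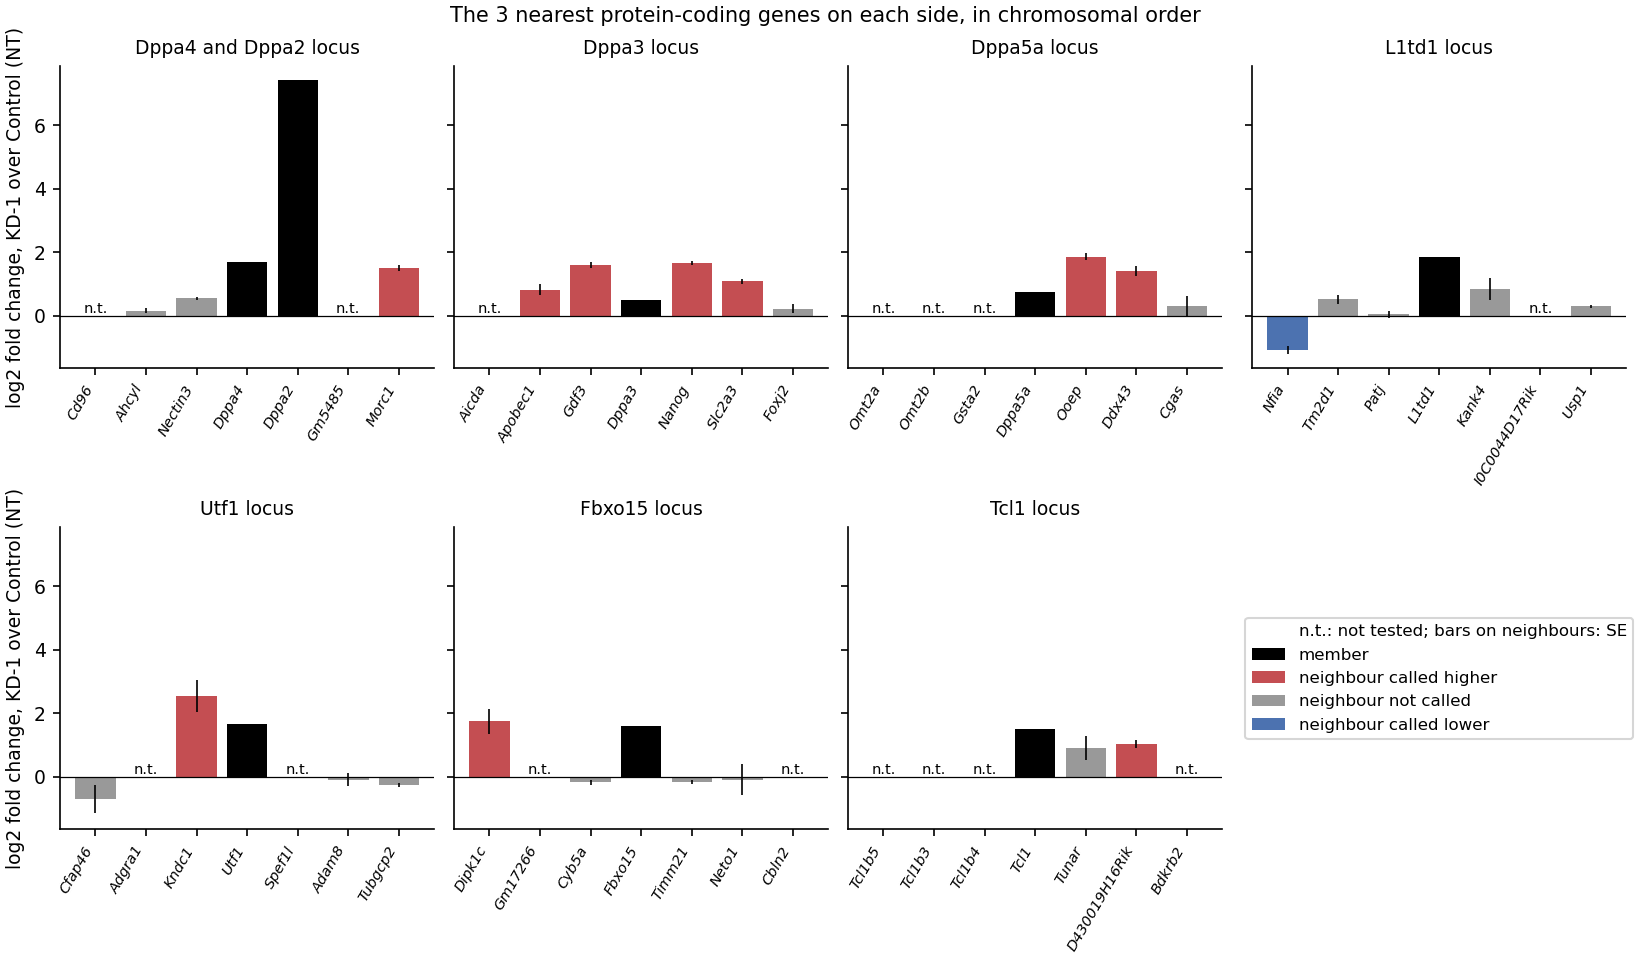
Log2 fold change of KD-1 over Control (NT) for the members (black) and the 3 nearest protein-coding genes on each side (around *Dppa4* for the locus it shares with *Dppa2*), in chromosome order, with neighbours in red where called higher, blue where called lower and grey where not called, their standard errors as vertical lines, and n.t. for genes with too few reads to be tested. Around *Dppa3* the called neighbours span 0.82 to 1.67, while *Patj* beside *L1td1* and *Timm21* at *Fbxo15* lie near 0.

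Across the 6 libraries, the genes whose pattern was most like the mean of the members were *Hs6st1*, *Wdr75*, *Igf2bp1*, *Ppp1r7* and *Fbxo28*, with Pearson correlations of log2 CPM from 0.99951 to 0.99978. The points are 2 groups of 3 libraries, and 773 of 12919 genes compared had a correlation over 0.99, so that the order among them carries little. Of these 5 genes, 4 lie on chromosome 1, which holds no member, and *Igf2bp1* lies on chromosome 11. *Igf2bp1* was at 295 ± 5.19 CPM in Control (NT) and 429 ± 2.34 CPM in KD-1 (SD, n = 3), a log2 fold change of 0.54 that is below the threshold for a call.

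Library totals ranged from 20982249 to 56674906 counts in Control (NT) and from 41180012 to 85561026 in KD-1, and 37.7% of all genes tested were called in either direction. The Control (NT) library of middle depth stood apart: over 10410 genes with at least 5 CPM, the SD of the log2 difference was 0.351 and 0.288 between it and the other Control (NT) libraries, 0.183 between those, and 0.0969 to 0.164 between KD-1 libraries. Its deviation followed transcript GC content, with medians from -0.09 to 0.174 between the lowest and the highest of 5 equal sets of genes ordered by it, and the difference of KD-1 from Control (NT) also moved with it, from a median of 0.27 to -0.446 between the same sets. Transcripts of the members have GC contents from 44.7% (*Dppa2*) to 63.6% (*Utf1*), and the part of GC content in their values was not tested. Without that library the 8 log2 fold changes were 8.11 (*Dppa2*), 1.76 (*Dppa4*), 0.30 (*Dppa3*), 0.75 (*Dppa5a*), 1.83 (*L1td1*), 1.98 (*Utf1*), 1.56 (*Fbxo15*) and 1.29 (*Tcl1*).

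Markers of other cell types were read beside the members and did not move one way. All 7 tested of the 8 paraxial mesoderm markers fell, and *Tbx6*, *Hes7*, *Uncx* and *Foxc2* passed the filter only through their Control (NT) libraries. The 8 markers summed to 478 to 541 CPM in Control (NT) and 45.3 to 45.6 in KD-1. *Meox1* made up most of the sum in Control (NT) (371 CPM, 0.423 in KD-1), and *Pax3* most of it in KD-1 (42.2 CPM, 89.7 in Control (NT)). Of 5 tested neural markers 4 rose, and the summed level went from 34.7 to 37.9 CPM to 156 to 160. *Dcx*, among those that rose, had 18, 0 and 30 reads in the Control (NT) libraries and passed the filter only through KD-1. Summed neuromesodermal markers spanned 50.3 to 56.2 and 50.3 to 54 CPM (1 rose, 1 fell and 3 were not called, with 2 called higher without the Control (NT) library of lowest depth). Definitive endoderm markers summed to 121 to 147 and 264 to 273 CPM, nearly all of it *Trh*, with group means of *Sox17* and *Foxa2* of at most 0.207 CPM (1 rose, 1 fell and 1 was not called). The fall was that of *Foxa1*, which passed the filter only through Control (NT). Endothelial (16.7 to 17.8 and 30 to 32 CPM) and primitive endoderm markers (11.2 to 16.8 and 5.88 to 6.92 CPM) each had 1 rise and 2 falls among 3 tested, and these counts changed by 1 when single libraries of either group were left out. *Pecam1*, the only gene of the endothelial list that rose, made up most of that sum (14.5 and 29.4 CPM), while *Kdr* fell from 1.92 to 1.06 CPM. *Etv2*, the other endothelial fall, passed the filter only through Control (NT). *Sox7*, the rise in primitive endoderm, passed it only through KD-1. Trophoblast markers were lowest (1.19 to 2.56 and 2.41 to 3.29 CPM), with *Prl3d1* and *Tpbpa* at 0 in every library and the 2 tested not called, though 1 was called higher when the middle-depth Control (NT) library was left out. The part of these cell types in the members' values was not tested.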

How the data were processed

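Bulk RNA-seq of mouse gastruloids was available as 3 Control (NT) and 3 KD-1 libraries. The authors quantified reads with Salmon (version 1.1, per the submitters' processing notes) against a Gencode gene model, and deposited estimated counts per Ensembl gene as whole numbers without normalization; strand use and the summing of transcripts to genes are not given in the sources used here. Column suffixes of the table do not correspond to the replicate numbers of the labels, so libraries are named by depth within their group. A count of 0 allows up to 0.143 CPM in the shallowest library and 0.0351 in the deepest (3 counts), for counting error only.

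Positions and lengths came from GENCODE vM39 on GRCm39 (35222 of 35565 identifiers matched). edgeR (version 4.0.16, R 4.3.3) was run with filterByExpr, TMM scaling and a robust quasi-likelihood fit on condition alone, with Benjamini-Hochberg adjustment over 15110 genes, and every adjusted p in the text is from this fit. Calls required a fold change over 1.5 or under 0.667 and an adjusted p under 0.05, and "rose" or "fell" is used of called genes. Libraries of a group differed by more than sampling noise in chi-square tests, and p-values measure the spread between these libraries, which may be technical. Copies were found with blastn, at 90% identity or more. The script was checked on simulated counts.

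The members and the gene lists were chosen with earlier results of these data known. Named are all members, in each list up to 5 genes (called ones, with the largest rise and fall), called neighbours, and the 5 genes of most similar pattern with a mean of at least 1 CPM. *Kmt2b*, *Nectin3*, *Patj*, *Timm21*, the genes given as not called and the markers of other cell types were named after their values were seen. Alternatives were DESeq2 (version 1.42.0), limma-voom (version 3.58.1), other scalings, filters and thresholds, copies summed to their member, and each library left out in turn. Some genes of the AKT list are counted but not reported by name here.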

Additional observations from a re-analysis of the deposited data

How the results depend on the processing

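With each of the 6 libraries left out, 7 or 8 members were called higher, the 8th being *Dppa3* without the Control (NT) library of lowest depth, and 7 were called with DESeq2, limma-voom, every other scaling and copies summed. Requiring 10 counts in every library gave 6 since it removed *Dppa2*, and a log2 change over 1 gave 6 since *Dppa5a*, at 0.74, was no longer called. No member changed direction under any alternative run. Counts of calls moved with the fold threshold: over all genes 5704 became 3274 when the log2 change had to exceed 1 in size and 9597 with no fold threshold, those higher went from 2976 to 1948 and 4676, and those lower from 2728 to 1326 and 4921. In the gene lists the genes called lower went from 11 to 3 and 23, and among neighbours from 1 to 3 without a fold threshold. The gene Patj log2 fold change of 0.042 ranged from -0.057, when the middle-depth Control (NT) library was left out, to 0.122, and Patj was called in none of these. Of the values of 80 named genes under the alternatives, 1142 kept their direction and side of the threshold, 26 lost the call and 17 gained it. No paired analysis was possible because the columns carry no replicate number that corresponds to the labels. Depth limited several lists: 14 of 20 2-cell-stage genes, 4 of 6 *Tcl1* family genes and 3 of 8 KH-domain oocyte genes had too few reads to be tested.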
